A study of Mus musculus with 2 samples.

Results

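The 9 genes described here encode the signalling adaptors of natural killer (NK) cell activating receptors (Tyrobp, Hcst, Fcer1g, Cd247), a pair of the receptors that use them (Ncr1, Fcgr3) and the 3 CD3 chains Cd3d, Cd3e and Cd3g. They were chosen by symbol, and each matched 1 of the 32285 genes listed in the files. The question was at what level each was carried by NK cells of each maturation stage, by cells resembling type 1 innate lymphoid cells (ILC1) and by T cells, and which CD3 chains NK cells carried in the absence of Cd3e.

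Cells sorted from mouse spleen by flow cytometry as NK cells were read one by one with a droplet method that counts the 3′ ends of transcripts. One library came from mice under dietary restriction (DR), which eat less than their normal intake, and the other from normal mice (control). Strain, age, sex, length of restriction, number of mice, pooling and the sorting gate are not given in the sources used here. Each group was a single library, so no difference between DR and control had a replicate check, no test was possible, and every comparison is between these libraries.

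Activating receptors of NK cells have short cytoplasmic tails and signal through small transmembrane adaptors. Tyrobp (DAP12), Fcer1g (the FcRγ chain) and Cd247 (CD3ζ) carry the tyrosine motifs called ITAMs, which recruit the kinases Syk and Zap70, whereas Hcst (DAP10) carries a motif that recruits phosphoinositide 3-kinase. In T cells the CD3δ and CD3γ chains each form a dimer with CD3ε, and these dimers join Cd247 and the T cell receptor at the cell surface.

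The DR library held 6287 cell barcodes with a median of 5782 unique molecular identifiers (UMIs, each counting 1 captured transcript), and the control library 5702 barcodes with a median of 7151.5 UMIs. After filters, 5756 DR and 5244 control cells were used, and 13 barcode sequences occurred in both libraries. NK-like cells carried at least 2 of 6 NK cell genes and no UMI of Trac, Cd5, Cd6, Cd4 or Cd8b1, and no CD3 chain entered this gate. They made up 73.5% of DR cells (4230 cells) and 85.2% of control cells (4470 cells). Ncr1, one of the 9 genes and no part of the gate, was detected in 98.0% of DR and 98.7% of control NK-like cells. It does not tell them from the ILC1-like cells defined below, of which 98.5% in DR and 98.7% in control carried it. B-like cells numbered 408 in DR and 99 in control, and T-like cells, carrying both Cd3e and Trac, 292 in DR and 5 in control, so that the T cell values below come from the DR library. ILC1-like cells (323 in DR, 233 in control) passed the NK gate, carried at least 2 of 6 ILC1 genes such as Il7r and Cxcr6, and had no Eomes UMI.

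NK-like cells were divided by their UMIs of Cd27, which marks less mature mouse NK cells, and Itgam (CD11b), which marks more mature ones. The DR library held 874 Cd27-only, 913 Cd27-and-Itgam, 1475 Itgam-only and 968 cells with neither gene, and the control library 644, 1021, 2133 and 672 in the same order. A cell with 1 UMI of a stage gene can lose it by sampling, and 954 DR and 904 control cells had exactly 1 Cd27 UMI. Median depth also differed between stages, at 7002.5 UMIs in DR and 8989 in control Cd27-only cells and at 5015 in DR and 6663 in control Itgam-only cells. Levels are given as UMIs per 1000000 UMIs of the class (CPM), with 95% intervals that cover counting error only. A transcript gives 1 count whatever its length, but genes may differ in capture, so that levels of different genes are not ranked.

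The genes lie in 5 places in the mouse genome (GRCm38, mm10, GENCODE M21 annotation). Tyrobp (ENSMUSG00000030579, chr7:30413760-30417585, plus strand) and Hcst (ENSMUSG00000064109, chr7:30417712-30419854, minus strand) end 126 bases apart, and Ncr1 (ENSMUSG00000062524, chr7:4337724-4345164, plus strand) lies elsewhere on the same chromosome. Fcer1g (ENSMUSG00000058715, chr1:171229572-171234365, minus strand), Fcgr3 (ENSMUSG00000059498, chr1:171051174-171064935, minus strand) and Cd247 (ENSMUSG00000005763, chr1:165788681-165877277, plus strand) lie on chromosome 1. Cd247 shares its strand with the overlapping gene Gm16565, so its count may miss reads that fit both. Cd3g (ENSMUSG00000002033, chr9:44969572-44980431, minus strand), Cd3d (ENSMUSG00000032094, chr9:44981786-44987339, plus strand) and Cd3e (ENSMUSG00000032093, chr9:44998740-45009627, minus strand) form a cluster on chromosome 9.

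Cd3d and Cd3g start 1354 bases apart and are read in opposite directions, whereas 11400 bases separate the end of Cd3d from Cd3e. The 250 bases before the RefSeq start of each CD3 gene are shown because the first 2 of these genes were carried by NK-like cells and the third was close to absent, as described below. Sequences are those of RefSeq on GRCm38.p6, 5′ to 3′ on the strand of the gene, for Cd3d at chr9:44981536-44981785 on the plus strand, Cd3g at chr9:44980432-44980681 on the minus strand and Cd3e at chr9:45009612-45009861 on the minus strand. RefSeq places the start of Cd3e slightly inside the GENCODE gene given above, so that the Cd3e window overlaps that gene by a few bases. Capitals mark matches to the E-box motif CANNTG, searched on both strands.
Cd3d: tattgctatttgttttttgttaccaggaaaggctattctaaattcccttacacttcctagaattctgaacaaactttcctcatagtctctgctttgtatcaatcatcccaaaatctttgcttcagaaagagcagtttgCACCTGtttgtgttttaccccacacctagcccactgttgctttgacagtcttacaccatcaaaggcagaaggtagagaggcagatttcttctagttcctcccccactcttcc
Cd3g: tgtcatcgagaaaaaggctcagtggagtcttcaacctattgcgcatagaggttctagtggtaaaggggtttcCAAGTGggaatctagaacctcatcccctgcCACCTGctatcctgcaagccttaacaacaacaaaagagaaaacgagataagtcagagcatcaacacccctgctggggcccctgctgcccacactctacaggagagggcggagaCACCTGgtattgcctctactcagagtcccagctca
Cd3e: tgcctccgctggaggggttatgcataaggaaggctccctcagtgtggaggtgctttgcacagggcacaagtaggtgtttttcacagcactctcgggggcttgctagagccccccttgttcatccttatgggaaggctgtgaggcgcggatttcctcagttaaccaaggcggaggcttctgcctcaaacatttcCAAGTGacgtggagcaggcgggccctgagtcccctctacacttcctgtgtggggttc
The Cd3d stretch held 1 E-box match, the Cd3g stretch 3 and the Cd3e stretch 1, and 66.2% of 32851 promoters of this length held at least 1. The Ets core AGGAAG matched once in Cd3d, nowhere in Cd3g and at 2 places in Cd3e, against at least 1 match in 29.5% of all promoters. No match to the Runx core TGTGGT was found in the 3 stretches (14.0% of all promoters held one). These matches describe letters in these windows and say nothing of binding.

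Among the adaptors, Tyrobp, the ITAM adaptor of several activating Ly49 and NKG2 receptors, was carried at nearly even levels by all 4 NK stages. It lay at 3295 CPM in DR and 3424 CPM in control Cd27-only cells, and at 3486 CPM in DR and 3580 CPM in control Itgam-only cells. ILC1-like cells had less, at 2337 CPM in DR (2276 to 2400) and 2351 CPM in control (2285 to 2418). T-like DR cells had 115 CPM, close to the 106 CPM of DR and 112 CPM of control B-like cells. The B-like class serves here as a level of comparison, since free RNA itself was not measured. Its Tyrobp UMIs were uneven, with a median of 0 and up to 14 in a DR and 18 in a control cell. The parts of free RNA and of hidden doublets in this level were not tested. The few myeloid-like cells of the DR library (31 cells) reached 3288 CPM, in the range of NK-like cells. The order was thus NK-like above ILC1-like, with T-like and B-like cells last and not separated from each other by their intervals.

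Hcst, the adaptor of the receptor NKG2D, was the most even of the adaptors across innate cells. Its 4 stage levels ran from 778 to 877 CPM in the DR library and from 699 to 757 CPM in the control library, and both ranges were lowest in Cd27-only cells. ILC1-like cells lay inside or just above these ranges, with 844 CPM in DR and 767 CPM in control. It was also carried outside the innate cells. T-like DR cells had 451 CPM (426 to 477), 1.81-fold less than NK-like DR cells, whereas DR and control B-like cells had 81.6 and 80.0 CPM.

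Fcer1g, the partner chain of the IgG receptor CD16, showed the clearest gradient of the adaptors along the stages. In the DR library it lay at 2276 CPM in Cd27-only, 2563 in Cd27-and-Itgam and 3043 in Itgam-only cells, and in the control library at 2210, 2508 and 2947 CPM. Each step was larger than the counting intervals in both libraries. ILC1-like cells had 1995 CPM in DR and 2159 CPM in control, the lowest innate level in DR and close to the control Cd27-only level. T-like DR cells had 91.4 CPM, above the 22.3 CPM of DR B-like cells and near the 73.5 CPM of control B-like cells.

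Cd247, the ζ chain that NK cell receptors share with the T cell receptor, was a low-count gene in innate cells. NK-like cells had 112 CPM in DR (108 to 116) and 147 CPM in control (143 to 151). Across the stages it ran from 100 to 117 CPM in DR and from 124 to 158 CPM in control, with Cd27-only cells lowest and Itgam-only cells highest in both libraries. ILC1-like cells had 39.3 CPM in DR and 43.4 CPM in control, T-like DR cells 194 CPM (178 to 211), and B-like cells 3.41 CPM in DR and 4.33 CPM in control. The order T-like, NK-like, ILC1-like, B-like held with no overlap of intervals in the DR library.

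Because the adaptors changed unequally, their proportions differed between classes. There were 24.2 Fcer1g UMIs per Cd247 UMI in DR and 18.3 in control NK-like cells. ILC1-like cells had 50.8 in DR and 49.7 in control. T-like DR cells had 0.472, with Fcer1g there at 91.4 CPM, above the 22.3 CPM of DR and near the 73.5 CPM of control B-like cells. These proportions compare classes and do not rank the genes, which may differ in capture. Tyrobp UMIs per Hcst UMI numbered 4.22 in DR and 4.93 in control NK-like cells, 2.77 in DR and 3.06 in control ILC1-like cells, and 0.255 in T-like DR cells.

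Of the receptors, Ncr1 (NKp46) was highest in ILC1-like cells, at 1313 CPM in DR (1267 to 1360) and 1361 CPM in control (1311 to 1413). The NK stages ran from 1003 to 1120 CPM in DR and from 1154 to 1282 CPM in control, lowest in Cd27-and-Itgam cells and highest in Itgam-only cells of both libraries. Outside the innate cells it was low, with 37.5 CPM in T-like DR cells, 10.5 CPM in DR and 42.2 CPM in control B-like cells. Fcgr3, which encodes the IgG receptor CD16 of mouse NK cells, lay at 77.1 CPM in DR and 69.6 CPM in control NK-like cells. Its lowest stage was Cd27-only in the control library, at 49.8 CPM (44.4 to 55.7), whereas DR Cd27-only cells had 71.9 CPM (65.5 to 78.7) and overlapped in interval with the other DR stages, which ran from 70.5 to 82.1 CPM. ILC1-like cells had 45.2 CPM in DR and 32.6 CPM in control, T-like DR cells 2.94 CPM, and myeloid-like DR cells, which also use this receptor, 395 CPM.

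**Figure D1:**
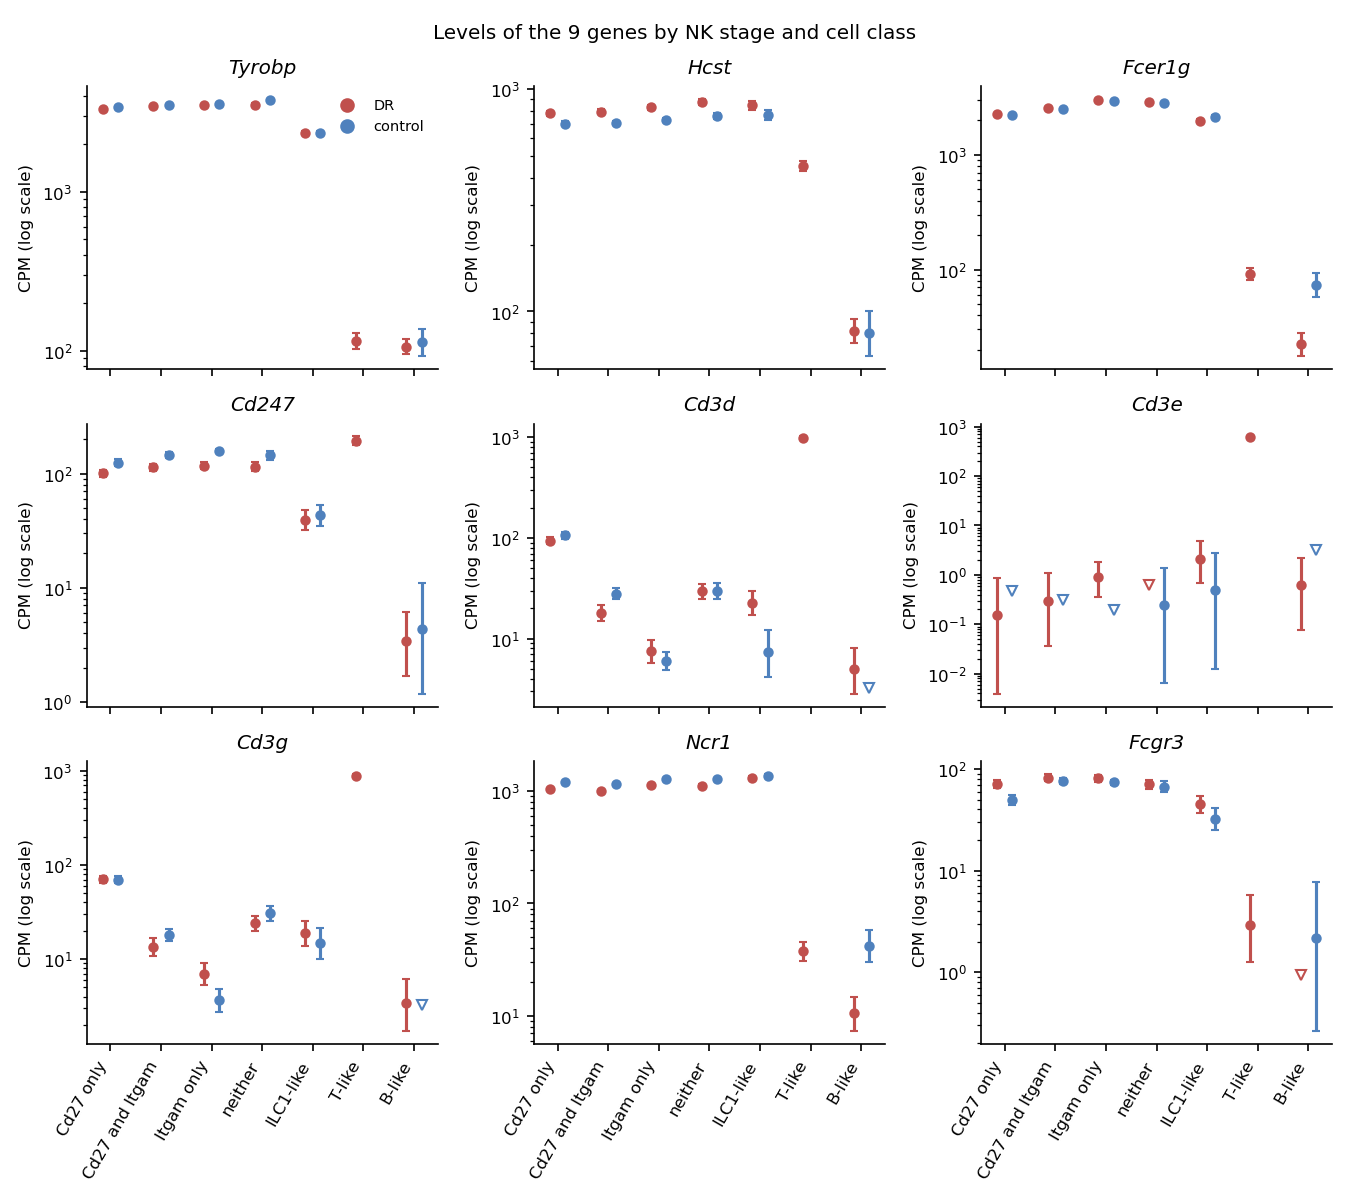
Level of each gene in CPM (log axis) by NK stage and cell class, DR in red and control in blue, with exact Poisson 95% intervals; open triangles mark the level that 3 counts would give where no UMI was found, and control T-like cells (5 cells) are not drawn. Fcer1g climbs from 2276 to 3043 CPM along the DR stages while Cd3d drops to 7.48 CPM in DR Itgam-only cells, and Cd3e stands out only in T-like cells, at 605 CPM.

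The CD3 chains did not behave as a unit in NK-like cells. Cd3d, the CD3δ chain, lay at 93.9 CPM in DR (86.6 to 102) and 106 CPM in control (98.2 to 115) Cd27-only cells, and at 7.48 CPM in DR (5.69 to 9.65) and 6.04 CPM in control (4.86 to 7.42) Itgam-only cells. Cd3g, the CD3γ chain, followed the same order, at 70.2 CPM in DR and 69.9 CPM in control Cd27-only cells and at 6.97 CPM in DR and 3.65 CPM in control Itgam-only cells. Cells with Cd27 and Itgam, and cells with neither gene, lay between these ends, with Cd3d at 18.0 CPM in DR and 28.0 CPM in control and at 29.5 CPM in DR and 29.7 CPM in control. B-like cells gave 4.96 CPM of Cd3d in DR (2.84 to 8.06), and 0 UMIs in control, which allows up to 3.24 CPM. The DR Itgam-only level of Cd3d therefore overlapped that of B-like cells, whereas the Cd27-only levels did not.

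Cd3e, the CD3ε chain, was found as 10 UMIs in 10 of 4230 DR NK-like cells and as 1 UMI in 4470 control NK-like cells. These correspond to 0.387 CPM in DR (0.185 to 0.711) and 0.0285 CPM in control, and the DR value was not above the 0.62 CPM (0.0751 to 2.24) of DR B-like cells. Of the 10 DR UMIs, 7 fell in Itgam-only cells, 2 in Cd27-and-Itgam cells and 1 in Cd27-only cells, where Cd3d and Cd3g were highest. Control Cd27-only cells had 0 Cd3e UMIs among 6220416, which allows up to 0.482 CPM. T-like DR cells had 605 CPM, a level set in part by the gate, which asks for a Cd3e UMI.

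A gate without any CD3 chain, asking for Trac and at least 1 of Cd5, Cd6, Cd4 and Cd8b1, gave a comparison in which no Cd3e UMI was asked for. The NK-like gate leaves out cells with a UMI of these same genes, so the Cd3e shares of both sides are still set in part by the gates. It took 282 DR cells and 3 control cells, and 7 of the DR cells had no Cd3e UMI. In these DR T cells Cd3e made up 24.3% of the 6523 UMIs of the 3 CD3 chains (23.2 to 25.3). In Cd27-only NK-like cells it made up 1 of 1065 such UMIs in DR, 0.0939% (0.00238 to 0.522), and 0 of 1095 in control, which allows a share of up to 0.274%. In all NK-like cells the share was 0.604% in DR (0.29 to 1.11) and 0.0516% in control (0.00131 to 0.287). Cells fitting no class include the 316 DR and 334 control innate cells left out for a T cell gene UMI. In them Cd3e made up 20 of 379 such UMIs in DR, 5.28% (3.25 to 8.03), and 0 of 194 in control.

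The proportion of the other two chains was closer between the classes. There were 0.769 Cd3g UMIs per Cd3d UMI in DR (0.697 to 0.849) and 0.691 in control (0.63 to 0.757) NK-like cells, against 0.908 (0.859 to 0.961) in the DR T cells gated without CD3 chains. In B-like DR cells, 2 of 29 CD3 chain UMIs were Cd3e (6.9%, 0.846 to 22.8). In DR Itgam-only cells 7 of 121 were (5.79%, 2.36 to 11.6), and in control Itgam-only cells 0 of 146. The Cd3e share was thus higher in DR Itgam-only than in DR Cd27-only cells, which carried far more Cd3d and Cd3g. The Cd3e levels themselves overlapped in interval, at 0.887 CPM (0.357 to 1.83) in DR Itgam-only and 0.154 CPM (0.0039 to 0.859) in DR Cd27-only cells. T cells were present in number in the DR library, and the part of free T cell RNA in this was not tested.

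**Figure D2:**
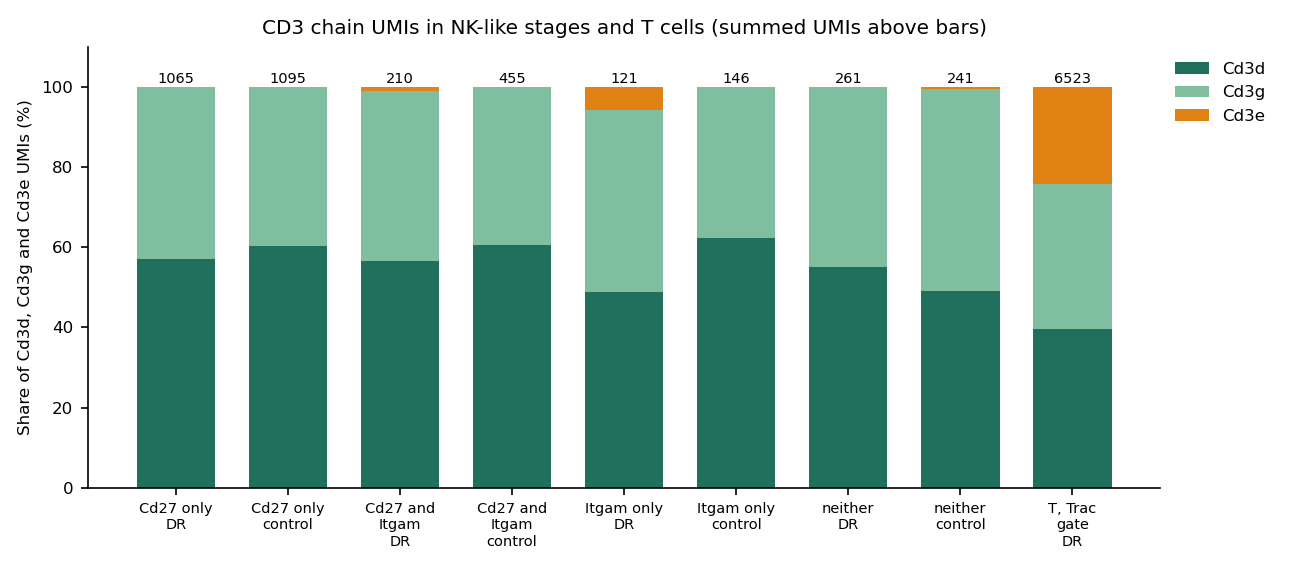
Share of the summed Cd3d, Cd3g and Cd3e UMIs taken by each chain (percent) in the 4 NK-like stages of the DR and control libraries and in DR T cells gated without CD3 chains, with the summed UMIs above each bar. Cd3e takes 24.3% in the T cells, 0.0939% in DR and 0% in control Cd27-only cells, and 5.79% of only 121 UMIs in DR Itgam-only cells.

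Counted by cell, NK-like cells without a Cd3e UMI carried Cd3d or Cd3g in 9.81% of cases in DR (414 of 4220 cells) and in 9.78% in control (437 of 4469 cells). Cd3d without Cd3g was found in 4.53% of DR and 4.99% of control cells, Cd3g without Cd3d in 2.58% and 2.30%, and both in 2.70% and 2.48%. With every cell thinned to 3000 UMIs, which left out 219 shallower DR and 280 shallower control cells, the share with Cd3d or Cd3g was 6.37% in DR (5.63 to 7.17) and 5.63% in control (4.95 to 6.37). The libraries thus had like shares at equal depth. B-like cells, with medians of 6454 UMIs in DR and 7930 in control, gave 2.34% in DR (1.08 to 4.40) and 0 of 87 cells in control after thinning, and 3.45% in DR and 0 of 99 cells in control before it.

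By stage, 21.9% of DR and 23.8% of control Cd27-only cells without Cd3e carried Cd3d or Cd3g, and 14.7% of DR and 15.8% of control cells did after thinning. Among Itgam-only cells the shares were 4.43% in DR and 4.97% in control, and 2.50% (1.75 to 3.46) and 2.41% (1.79 to 3.17) after thinning. The DR Itgam-only share was not above that of DR B-like cells and is not read as expression. In control, B-like cells had 0 of 87, with an upper bound of 4.15%, which does not separate them from the control Itgam-only share. ILC1-like cells had 8.75% in DR and 8.19% in control, and 4.15% in DR and 5.80% in control after thinning. Cd247, in contrast, was found in 46.2% of DR and 63.3% of control NK-like cells without Cd3e, and in 28.4% of DR (27.0 to 29.9) and 36.3% of control (34.8 to 37.8) cells at equal depth.

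Cd3d and Cd3g occurred in the same Cd27-only cells. Of DR Cd27-only cells with a Cd3d UMI, 52.9% also had Cd3g (44.8 to 60.9, 157 cells), against 4.75% of those without Cd3d (3.31 to 6.57, 716 cells). In control Cd27-only cells the shares were 53.8% with Cd3d (44.9 to 62.5, 132 cells) and 4.10% without it (2.56 to 6.20, 512 cells). At equal depth they were 46.4% and 3.72% in DR and 47.4% and 3.56% in control, so the joint occurrence was also seen in thinned cells. In Itgam-only cells this joint occurrence was weaker in DR (7.14% with Cd3d, 1.61% without) and not visible in control (1.32% with Cd3d, 1.46% without). In Cd27-and-Itgam cells the shares were 20.4% with Cd3d and 3.60% without it in DR, and 30.5% and 2.88% in control. Cells with neither stage gene had 31.6% and 2.31% in DR, and 31.8% and 3.99% in control. ILC1-like cells had 35% (20 cells with Cd3d) and 2.67% in DR, and 16.7% (12 cells) and 3.18% in control. DR B-like cells had 30.8% (13 cells) and 0.254%, so joint occurrence was not particular to Cd27-only cells.

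The UMIs were concentrated in few cells. Among DR Cd27-only cells, 683 of 874 had neither Cd3d nor Cd3g, while 43 cells (4.92%) with 10 or more UMIs held 60.2% of all. In control, 491 of 644 had neither and 48 cells (7.45%) held 72.1%. The highest cell had 35 such UMIs in DR and 44 in control. Cells with 10 or more were rarer in the other stages, with 5 DR and 17 control Cd27-and-Itgam cells, 1 DR and 0 control Itgam-only cells, and 8 DR and 6 control cells with neither stage gene.

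**Figure D3:**
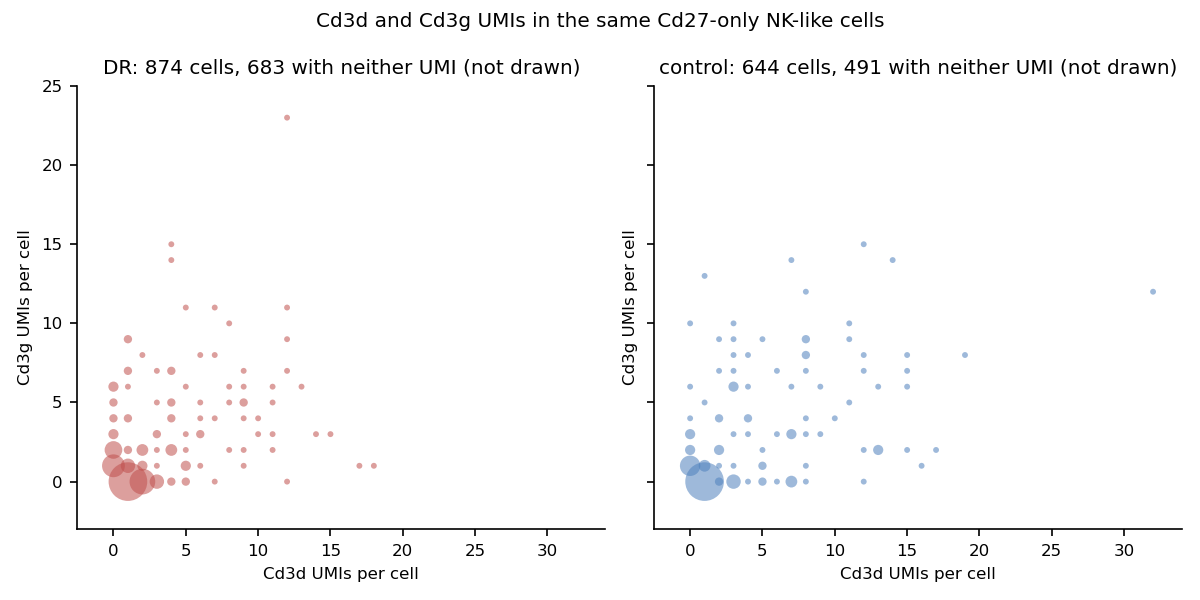
Cd3d UMIs (horizontal) and Cd3g UMIs (vertical) of single Cd27-only NK-like cells, DR on the left and control on the right, with the area of a point in proportion to the number of cells at that position; the 683 DR and 491 control cells with neither UMI are not drawn. Most cells with many Cd3d UMIs also have Cd3g UMIs, and the highest summed counts are 35 in DR and 44 in control.

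The cells that carried these chains were described through genes other than Cd3d and Cd3g. Of these, Prf1, Klrb1c, Il7r and Eomes also take part in the gates of NK-like or ILC1-like cells, so their levels are set in part by gating. Cd27-only cells with at least 2 UMIs of Cd3d and Cd3g together (133 in DR, 98 in control) were set beside those with none (683 in DR, 491 in control). They were deeper, with medians of 9046 against 6554 UMIs in DR and 11398 against 8332 in control. Cd3e had 0 UMIs in these cells of both libraries, as had Trac by the gate. Ncr1 was at 1051 CPM in them and 1033 CPM in the others in DR, and at 1108 and 1238 CPM in control, a difference inside the size limit used below.

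Fcgr3 was lower in the Cd3d- and Cd3g-carrying cells, at 59.9 against 78.5 CPM in DR (log2 ratio -0.39, -0.77 to -0.03) and 20.9 against 60.2 CPM in control (-1.52, -2.18 to -0.93). Fcer1g was at 2023 against 2358 CPM in DR (-0.22) and 1780 against 2348 CPM in control (-0.40), and Cd247 at 84.7 against 105 CPM in DR (-0.31) and 101 against 132 CPM in control (-0.40). The effector genes were much lower. Gzma, which encodes granzyme A, was at 1949 against 7824 CPM in DR and 1151 against 7326 CPM in control. Prf1, which encodes perforin, was at 236 against 660 CPM in DR and 164 against 708 CPM in control. Batf3, a transcription factor gene, was higher, at 137 against 25.2 CPM in DR and 167 against 21.2 CPM in control. Also higher were Il7r (log2 ratio 0.81 in DR, 0.55 in control), Trbc1 (0.77, 0.42) and Zap70 (0.40, 0.44). Lat was called higher in DR only (0.80, 0.21), while Trbc2 (0.30, 0.28) and Lck (0.04, -0.14) were not called. Klra8 was called lower in both libraries (-0.50, -0.39), and Syk in DR only (-0.54, 0.08). Trdc was called lower in control only (-0.09, -0.47). Of the gate genes other than Prf1 and Il7r, Eomes was called lower in DR (-0.36, -0.19) and Klrb1c in control (-0.27, -0.49). All genes named here that are no members of the set were looked up with earlier results known.

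Clusters made from the 2000 most variable genes, with the 9 left out beforehand, also differed in the chains. The NK-like cluster led by Batf3 (226 DR and 175 control cells) had 313 CPM of Cd3d, 214 CPM of Cd3g and 0.229 CPM of Cd3e over both libraries, with 82.5 CPM of Cd247 and 1835 CPM of Fcer1g. The other named NK-like clusters had between 4.69 and 75.2 CPM of Cd3d. An unnamed cluster of 80 DR and 215 control cells had 90.5 CPM. The highest of the named ones was a cluster led by cell cycle and histone genes (69 DR and 132 control cells), which was also the NK-like cluster with the most Cd3e, at 19.7 CPM.

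The comparison of Itgam-only with Cd27-only cells asked how the genes differ along maturation inside each library. Calls rest on size alone: a gene had to be at least 25% higher or 20% lower (a log2 ratio beyond 0.32) with an interval that leaves out equality, and its mean over both sides had to reach 20 CPM. In DR, 3 of the 8 measured members were called, against 23.9% of all 5825 genes, and in control 5 of 8, against 31.1% of 5885 genes. Of all genes, 17% were higher and 6.92% lower in DR, and 19.7% were higher and 11.5% lower in control. Fcer1g was higher in both libraries (log2 ratio 0.42 in DR and 0.42 in control), Cd3d lower (-3.65 in DR, -4.06 to -3.26, and -4.13 in control, -4.47 to -3.82), and Cd3g lower (-3.33 in DR and -4.26 in control). Cd247 and Fcgr3 were called higher in control alone, at 0.35 and 0.57, against 0.23 and 0.18 in DR, and the difference between the libraries was not tested. Under median-of-ratios scaling control Cd247 was at 0.25 and no longer called, while control Fcgr3, at 0.48, was. Tyrobp, Hcst and Ncr1 stayed within 0.11 of 0 in both libraries.

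The median gene was itself higher in Itgam-only cells, by 0.11 in DR and 0.09 in control, so that under median-of-ratios scaling Fcer1g was at 0.31 in DR, short of the limit, and at 0.323 in control, just past it. Under that scaling Tyrobp (-0.03 in both libraries) and Hcst (-0.02 in DR, -0.03 in control) turned below 0 and Ncr1 was at 0. Thinning before gating, which mixes the stages by dropped UMIs, left Cd3d at -2.26 and Cd3g at -2.04 in DR and at -3.92 and -3.72 in control, and Fcer1g at 0.27 in DR and 0.21 in control. Counting a stage gene only from 2 UMIs gave -4.26 for Cd3d and 0.49 for Fcer1g in DR.

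The signalling partners of the adaptors were followed in lists chosen with earlier results known. Their counts stand beside 17% of all genes higher and 6.92% lower in DR, and 19.7% higher and 11.5% lower in control. Of 6 measured receptors that pair with the adaptors, 3 were higher and none lower in Itgam-only cells of each library, among them Klrb1c (NK1.1), at 1305 against 1016 CPM in DR (log2 ratio 0.36) and 1253 against 896 CPM in control (0.48). Of 24 kinases and adaptors downstream, 5 were higher and 2 lower in DR, and 5 higher and 3 lower in control, near the share over all genes. Malt1, a scaffold of NF-κB signalling, was higher (0.67 in DR, 0.63 in control), whereas Zap70, the kinase that binds Cd247, was lower in DR (-0.43), and Syk, which also binds ITAMs, was higher in control (0.43). Of 13 negative regulators, 3 were higher and 1 lower in DR and 4 higher and 2 lower in control, with Ubash3a lower in both (-0.87 in DR, -1.16 in control).

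T cell genes other than CD3 followed Cd3d and Cd3g in part. Of the T cell receptor segments, 2 of 3 measured were lower in DR Itgam-only cells and 3 of 4 in control, with Trbc1 at 241 against 455 CPM in DR and 336 against 567 CPM in control. The constant segments Trbc1 and Trbc2 are near-identical copies, so their split is uncertain. Of the other T cell genes, Thy1 and Cd28 were lower in both libraries (Thy1 -1.77 in DR and -1.61 in control), whereas Cd2, an adhesion receptor of T and NK cells, was within the limit (0.11 and 0.21).

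The comparison of ILC1-like with NK-like cells called 6 of 8 measured members in DR, against 26.4% of 5935 genes, and 4 of 7 in control, against 27.9% of 6022 genes. All of these were lower in ILC1-like cells, a direction called for 11.4% of genes in DR and 12.3% in control. Cd247 was lower by 2.84-fold in DR (log2 ratio -1.51, -1.82 to -1.21) and by 3.38-fold in control (-1.76, -2.08 to -1.45). Tyrobp had a log2 ratio of -0.56 in DR and -0.59 in control, and Fcgr3 of -0.77 in DR and -1.10 in control. Fcer1g was called lower in DR (-0.44) and fell short of the limit in control (-0.31). Hcst (0.05 in DR, 0.09 in control) and Ncr1 (0.30 in DR, 0.14 in control) stayed within it.

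Cd3d was called lower in ILC1-like cells of both libraries (-0.66 in DR, -2.14 in control) and Cd3g in DR (-0.54), but these 2 genes did not keep their direction. Without the condition of no Eomes UMI, both were higher in ILC1-like cells of both libraries, and with classes taken from clusters Cd3d was at 0.35 in DR and -0.97 in control. The DR ILC1-like class carried the antibody light chain transcript Igkc at 3986 CPM, against 42.4 CPM in control. Cells holding B cell or myeloid RNA were then left out, meaning those with a Jchain UMI or at least 5 summed UMIs of Igkc, Cd74 and Lyz2. This took 25 DR and 40 control ILC1-like cells. Igkc was then at 19.6 CPM in DR and 6.21 CPM in control. Cd247 remained at 42.4 CPM in DR and 47.8 CPM in control ILC1-like cells, against 113 and 148 CPM in NK-like cells.

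Among the partner genes, Klra4 and Klra8, activating Ly49 receptors that signal through Tyrobp, were at 10.1 and 9.72 CPM in DR ILC1-like cells, against 849 and 497 CPM in DR NK-like cells. In control they were at 15.8 and 25.7 CPM in ILC1-like cells, against 947 and 834 CPM in NK-like cells. Ly49 genes are close copies of each other, so their counts are uncertain. Sh2d1a (SAP), an adaptor of SLAM family receptors, was lower, at 27.9 against 223 CPM in DR and 26.6 against 196 CPM in control, and so was the kinase gene Fyn (-1.15 in DR, -1.25 in control). In all, 6 of 25 kinases and adaptors were higher and 8 lower in DR, and 3 of 24 higher and 8 lower in control. Of all genes, 14.9% were higher and 11.4% lower in DR, and 15.6% higher and 12.3% lower in control. The negative regulators were 5 higher and 2 lower of 13 in DR, and 6 higher and 4 lower in control, led by Dok1 in DR (1.15) and Ubash3a in control (1.06). Of the T cell receptor segments, Tcrg-C4 was at 278 CPM in DR ILC1-like cells against 14.2 CPM in NK-like cells, with 276 against 14.3 CPM in control, and the Tcrg-C genes too are near copies.

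T-like DR cells set against NK-like DR cells showed the opposite use of the adaptors. All 9 members were called, where 56.6% of 5675 genes were (13.1% higher, 43.6% lower), and Cd3e and its companions in the T cell receptor complex were in part fixed by the gate. Tyrobp (log2 ratio -4.91), Fcer1g (-4.89), Ncr1 (-4.83) and Fcgr3 (-4.71) were about equally far below NK-like cells, while Hcst was lower by 0.85 only. Cd247 was higher by 0.80 (0.66 to 0.93), and Cd3d and Cd3g by 4.76 and 5.01. The ratio of Cd3e, 10.6, is a description, since the gate asks for its UMI. The 5 control T-like cells were too few to describe.

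The comparison of DR with control NK-like cells asked which of these genes differed between the feeding groups. Cd247 alone among 8 measured members was called, at 112 CPM in DR and 147 CPM in control (log2 ratio -0.39, -0.46 to -0.33), against 11.3% of 5855 genes called in either direction, 3.04% higher and 8.28% lower. The median log2 ratio of all genes was -0.06. Tyrobp (-0.04) and Fcer1g (0.01) differed least. Hcst was at 815 CPM in DR and 720 CPM in control (0.18, 0.15 to 0.21), and Ncr1 at 1069 CPM in DR and 1231 CPM in control (-0.20, -0.23 to -0.18), each with an interval that left out 0 but inside the limit. Fcgr3 was at 0.15, Cd3d at 0.14 and Cd3g at 0.30.

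These directions were then followed through the stages. Cd247 was lower in DR in each of the 4, with log2 ratios of -0.31 in Cd27-only (short of the limit), -0.36 in Cd27-and-Itgam, -0.43 in Itgam-only and -0.32 in cells with neither gene. Hcst was higher in DR by 0.15 to 0.21 and Ncr1 was lower in each stage, at -0.21 to -0.19. Fcgr3 was called higher in DR Cd27-only cells (0.53, 0.32 to 0.74), at 71.9 CPM against 49.8 CPM, and in DR ILC1-like cells (0.47, 0.02 to 0.94), at 45.2 CPM against 32.6 CPM. In the other stages it was between 0.07 and 0.14. In Cd27-only cells 1 of 8 measured members was called, and it was higher, against 15.9% of all genes, 4.5% higher and 11.4% lower. In Cd27-and-Itgam cells 2 of 7 were called, both lower, against 15.6%, 4.98% higher and 10.6% lower. In Itgam-only cells 1 of 6 was called, lower, against 13.2%, 4.31% higher and 8.94% lower, and in cells with neither gene 1 of 8, lower, against 14.2%, 4.76% higher and 9.44% lower. In ILC1-like cells 1 of 6 was called, higher, against 14.9%, 4.11% higher and 10.8% lower. With 1 or 2 members called in a class, these counts cannot be told from the background.

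For Cd3d and Cd3g the direction changed with the weight given to the stages, and the part of the mix of stages in it was not tested. The DR library had more Cd27-only cells, 20.7% of its NK-like cells, against 14.4% in control, and these cells carry most of both transcripts. Within Cd27-only cells the log2 ratio was -0.18 (-0.34 to -0.01) for Cd3d and 0.01 (-0.19 to 0.20) for Cd3g. Leaving out cells holding B cell or myeloid RNA, by the rule given above, took 38 DR and 40 control Cd27-only cells. Cd3d in Cd27-only cells was then at 84.7 CPM in DR and 81.6 CPM in control, so that the DR value was no longer the lower one. Control Cd3d had been at 106 CPM, while control Igkc hardly moved (7.395 CPM before, 7.19 CPM after). The rule thus also took cells rich in Cd3d, and the part of B cell or myeloid RNA in this was not tested. Weighting the 4 stages equally turned the overall values to -0.19 for Cd3d and -0.10 for Cd3g. In Cd27-and-Itgam cells Cd3d was called lower, at 18.0 CPM in DR and 28.0 CPM in control (-0.64, -0.96 to -0.32).

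**Figure D4:**
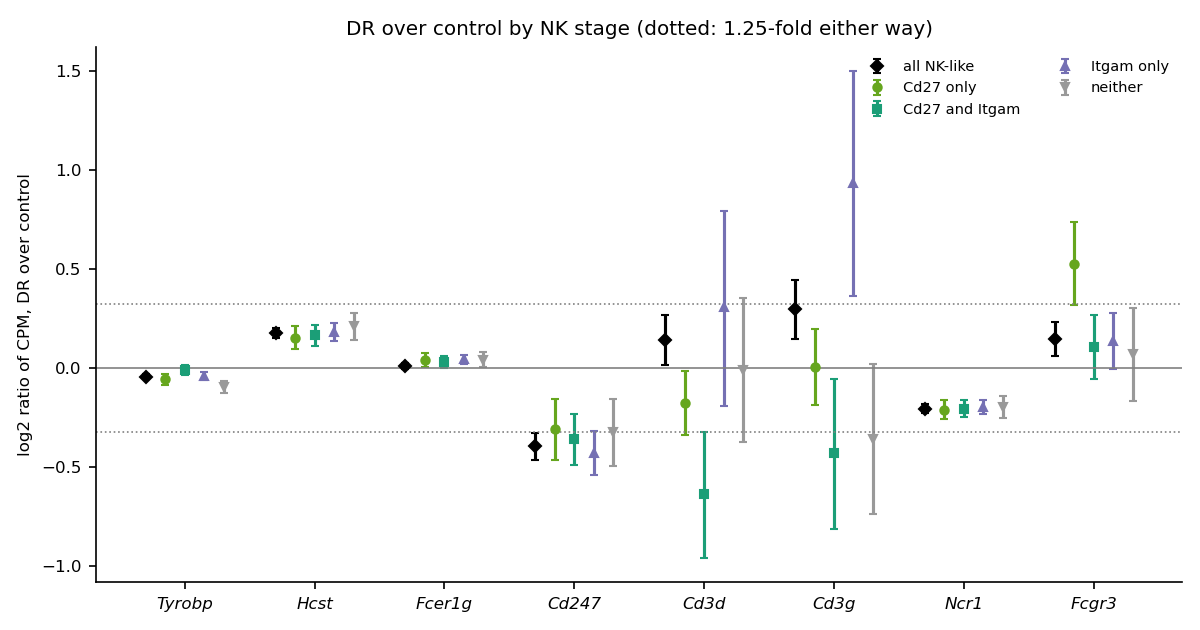
Log2 ratio of CPM, DR over control, for 8 of the genes in all NK-like cells and in each stage, with exact conditional binomial 95% intervals and dotted lines at a log2 ratio of 0.32 either way; Cd3e is left out for its 11 UMIs in both libraries. Cd247 lies below 0 in all NK-like cells and in each stage (-0.31 to -0.43), Hcst above 0 and Ncr1 below 0 in each, and Cd3d and Cd3g scatter around 0 by stage.

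Partner genes of the adaptors were also set side by side between DR and control NK-like cells, where 3.04% of all genes were called higher and 8.28% lower. Of 6 receptors that pair with them, Klra8 (Ly49H, with close copies) was called lower in DR, at 497 CPM against 834 CPM (log2 ratio -0.75). Of 24 kinases and adaptors, Vav3 (-0.43) and Plcg2 (-0.33) were lower and none higher, a count at the share over all genes, and the list's median was -0.16 against -0.06 over all genes. Of 13 negative regulators, 3 were higher and none lower. Sla2, which encodes an adaptor that lowers receptor signalling, was at 60.5 CPM in DR and 23.0 CPM in control (1.39, 1.27 to 1.52), its relative Sla at 0.51 and the Csk-binding Pag1 at 0.41. The 3 measured T cell receptor segments were not called, whereas the 3 other measured T cell genes, Cd28 (0.82), Thy1 (0.59) and Cd2 (0.40), were higher in DR. Trac, Cd5, Cd6, Cd4 and Cd8b1, also in these lists, had no UMI in NK-like cells by the gate and could not be measured. Within stages Cd2 was called higher in each of the 4, whereas Cd28 was not called in Cd27-only cells (0.30) or in cells with neither gene (0.17), nor Thy1 in cells with neither gene (0.22).

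Which genes were most like each member was described over 14 sums of a class in a library with at least 30 cells, as the Pearson correlation of log2(CPM + 1) among 8117 genes. The sums share libraries and depth, and the T-like and B-like ones set most of the range, so no test is attached. Cd3d and Cd3g were each other's nearest gene (r = 0.986, and 0.985 over the 8 NK stage sums alone). The next gene was at 0.875 for Cd3d (Bicdl1) and at 0.872 for Cd3g (Nsg2). Cd3e was instead nearest to Cd40lg (0.952), Tmie (0.951) and Cd6 (0.951), of which Cd6 sets a gate.

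The adaptors and receptors had other neighbours. Ncr1 was nearest to the receptor genes Klrk1 (0.992) and Klrc2 (0.992), and then to Zmat5 (0.990), but over the NK stages alone these stood at -0.77, 0.26 and 0.68. Tyrobp was nearest to Tnfsf12 (0.991), Sos2 and Gas7 (0.75, 0.17 and -0.55 over the NK stages), and Fcer1g to Tnfsf12 (0.988), Myo1f and the NK cell receptor gene Cd244a (0.85, 0.30 and 0.82). Hcst was nearest to Atp11b (0.989), D16Ertd472e and Efr3a (0.95, 0.20 and 0.05 over the NK stages). Cd247 was nearest to Cnn2 (0.988), Airn and Ms4a4b (0.93, -0.53 and 0.13 over the NK stages), and Fcgr3 to Mxd1 (0.991), Ctnna1 and Pxn (0.89, 0.37 and 0.49).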

How the data were processed

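For each library the deposited matrix holds raw UMI counts (whole numbers). It was made with Cell Ranger, in version 5.0.1 per the file headers but 2.1.1, with build mm10, per the submitters' processing notes, and this conflict was not settled. Libraries were made with 10x Genomics 3′ chemistry per the labels' protocols. Barcodes without cells were not used here, so free RNA was not measured, and B-like cells served only as a level of comparison.

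A minimum of 500 genes and a maximum of 10% mitochondrial UMIs per barcode took out 167 DR and 215 control barcodes. Doublets were scored with Scrublet in scanpy 1.11.5. Its automatic threshold marked 0 cells in both libraries, so the top scores, at 0.8% per 1000 cells with ties, were left out instead (364 DR, 243 control cells).

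NK-like cells had at least 2 of Klrb1c, Klre1, Klrd1, Klrk1, Nkg7 and Prf1 and no UMI of Trac, Cd5, Cd6, Cd4 or Cd8b1, a condition that left out 316 DR and 334 control cells. ILC1-like cells were those with at least 2 of Il7r, Tmem176a, Tmem176b, Cxcr6, Cd200r1 and Itga1 and no Eomes UMI. B-like cells had at least 3 of 7 B cell genes, and myeloid-like cells at least 3 of 10 myeloid genes. Cells fitting several classes or none entered no comparison. In NK-like cells the 7 B cell genes summed to 14.2 CPM in DR and 7.66 CPM in control, the 10 myeloid genes to 13.3 CPM and 3.76 CPM, and 4 plasma cell genes to 63.3 CPM and 65.3 CPM; their part in the results was not tested.

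Raw counts were summed per class and library with numpy 2.4.6. CPM have exact Poisson, ratios exact conditional binomial and shares exact Clopper-Pearson intervals (scipy 1.17.1), all at 95% and for counting error only. Limits for 0 counts use 3 counts. The comparison code was tested on simulated data. Named genes were the 9 members, at most 4 genes of each of 5 partner lists with the largest ratio, and the 3 genes most like each member. The members, lists and classes were chosen with earlier results of these data known. Alternatives comprised other scalings, stage weights, depth, doublets kept, clusters, stricter stages and gates, and, added after seeing the data, keeping innate cells with a T cell gene UMI. Promoter sequences were matched by symbol for 8 of 9 members.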

Additional observations from a re-analysis of the deposited data

Results flagged for a closer look

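The ratios of Cd3d and Cd3g between DR and control had opposite signs in different innate classes, and the difference between these classes was not tested. Only the Cd3d value of Cd27-and-Itgam cells reached the mean of 20 CPM needed for a call, and the other 3 values are below it. The log2 ratio of Cd3d between DR and control was 1.62 in ILC1-like cells (0.78 to 2.56; 22.8 CPM from 54 UMIs in DR and 7.40 CPM from 15 UMIs in control) and -0.64 in Cd27-and-Itgam cells (-0.96 to -0.32; 18.0 CPM in DR and 28.0 CPM in control). Cd3g had a log2 ratio of 0.93 in Itgam-only cells (0.37 to 1.499; 6.97 CPM in DR and 3.65 CPM in control, from 55 UMIs each) and of -0.43 in Cd27-and-Itgam cells (-0.81 to -0.06; 13.5 CPM in DR and 18.2 CPM in control). B-like cells carried Cd3d at 4.96 CPM and Cd3g at 3.41 CPM in DR, and neither in control, and T-like cells numbered 292 in DR and 5 in control. The part of free T cell RNA in these values was not tested.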

How the results depend on the processing

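No paired analysis was possible because each group was 1 library, and no library could be left out. The count of members called between DR and control NK-like cells was 1 (Cd247). It came to 2 with median-of-ratios scaling, with totals without mitochondrial and ribosomal protein genes, with cells holding B or myeloid RNA left out and with innate cells with a T cell gene UMI kept (Cd3g added in each), 2 with no minimum CPM (Cd3e added) and 3 with classes from clusters (Cd3d and Cd3g added). Cd247 was called in each of these, at log2 ratios of -0.40 to -0.33. The share of NK-like cells without Cd3e that carried Cd3d or Cd3g was 6.37% in DR and 5.63% in control after thinning. It was 4.52% in DR and 3.76% in control when cells with a UMI of Trbc1, Trbc2, Trdc, Cd8a or Cd28 were also left out. NK-like cells themselves carried Trbc1 at 337 CPM in DR and 421 CPM in control, and Trbc2 at 223 and 269 CPM. The stricter gate thus also left out NK cells, deeper ones more readily. The number and depth of the cells kept are not given, and their part in the lower share was not tested. The ILC1-like over NK-like log2 ratio changed sign with classes from clusters for Cd3d in DR (0.35) and for Cd3g (0.51 in DR, 0.25 in control), and without the Eomes condition for Cd3d (0.58 in DR, 0.40 in control) and Cd3g (0.67 in DR, 0.86 in control). The cause was not tested. With classes from clusters Cd3e made up 3.65% of the CD3 chain UMIs of NK-like cells in DR and 0.0498% in control. The 21 other checks of main values, and 184 checks of single genes, stayed within their intervals or within 1.5 times, and 61 moved without a change of sign of a called value. Depth limits what can be said of Cd3e, with 11 UMIs in all NK-like cells.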
